A study of Drosophila melanogaster with 12 samples.

Results

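Of 10 listed genes of the fly photoreceptor, 7 had a probe set that carries their symbol alone in the platform annotation: Gbeta76C, trp, inaC, inaD, Arr1, Arr2 and Pdh, with 1 probe set each. These 7 probe sets belong to a table of 14010, of which 11586 were tested. The opsin genes ninaE and Rh4 and the phospholipase C gene norpA had no probe set under their own symbol there and were not analysed here. One further probe set is annotated to CG15024 and Pdh together. It was left out, and its intensity lay between 15.8 and 23.2, under the floor of 57.2 that was set for dim signals.

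The arrays hold RNA from whole Drosophila melanogaster at each hour from 1 to 12 after a return to food with yeast, with 1 array per hour and no repeat. All 12 groups of flies shared the same history: a diet without yeast from the early part of the last larval stage until 4 days after emergence. Flies left on food without yeast were not analysed here, so the hours are compared with each other alone. The labels name neither strain nor sex and do not say how many flies stand behind an array. Hour was the only factor, so it cannot be told apart from time of day, age or the order in which arrays were handled, and p-values measure only the spread of single arrays around a line over hours.

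In the fly eye, rhodopsin that has caught light activates a heterotrimeric G protein, the G protein activates a phospholipase C, and the cascade ends in the opening of TRP channels in the photoreceptor membrane. Arrestins bind activated rhodopsin and end its signal, while a scaffold protein holds channel, phospholipase and protein kinase C together. The retinoid light absorber is renewed in part by enzymes of the neighbouring pigment cells. These transcripts are described here for the eye but were measured in RNA of the whole body, in which tissues were not separated. Fewer cells that carry them per unit of body RNA and less RNA per such cell cannot be told apart.

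All 7 probe sets fell over the 12 hours, by a fitted log2 change between -0.46 for Arr1 and -1.49 for Pdh, and all 7 were above the floor on all 12 arrays. A fall was called for 4.97% of the 11586 tested probe sets and a rise for 8.44% (limma, Benjamini-Hochberg adjusted p under 0.05). In each of the 7, every array of hours 9 to 12 read below every array of hours 1 to 4, which held for 4.28% of tested probe sets. Their fitted levels at hour 12 ranged from 35.5% of the hour 1 level for Pdh to 72.6% for Arr1. The median fitted change was -0.89 over the 7 genes and 0.02 over 9224 tested genes. The members were chosen with earlier results of these arrays known.

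The G protein that couples rhodopsin to the phospholipase is represented by its eye-specific beta subunit, Gbeta76C. Its intensity was 245.8, 253.0, 214.0, 179.0, 169.8, 172.6, 127.2, 161.9, 134.8, 131.4, 130.9 and 118.7 at hours 1 to 12. The 2 opening hours were the highest and hour 12 the lowest, with a dip at hour 7 between higher readings. The fitted log2 change was -1.07 ± 0.12 (SE, n = 12 arrays; limma adjusted p = 0.000186), and a straight line in hour held 87.1% of its variance on the log2 scale. It was the 34th largest fall of all tested probe sets.

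The light-activated calcium channel trp read 588.0, 376.3, 368.5, 306.2, 301.0, 359.2, 280.6, 321.5, 239.7, 214.4, 288.9 and 255.8 at hours 1 to 12. Hour 1 stood above all other arrays, and hours 11 and 12 read above hour 10. Its fitted change was -0.92 ± 0.19 (SE, n = 12 arrays; limma adjusted p = 0.00668), with the widest scatter of the 7 around its line, at an SD of 0.24 on the log2 scale. Without hour 1 the change was -0.65, still past the threshold.

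inaC encodes the protein kinase C of the eye, which acts in shutting off the light response, and inaD encodes the PDZ scaffold that holds it. inaC, the dimmest member, read 129.7, 121.2, 102.4, 88.7, 90.0, 105.2, 83.2, 110.7, 85.8, 75.1, 77.2 and 62.6 at hours 1 to 12. Its hour 12 value lay close to the floor of 57.2. The scaffold inaD read 289.5, 258.3, 241.7, 230.3, 229.9, 234.8, 196.6, 235.9, 208.5, 171.9, 179.7 and 153.9. Both were highest at hour 1 and lowest at hour 12, and both read higher at hour 8 than at hour 7. The fitted changes were -0.78 ± 0.15 for inaC and -0.73 ± 0.10 for inaD (SE, n = 12 arrays; limma adjusted p = 0.00386 and 0.000607). When the floor was raised to the 40th percentile, much of the course of inaC is replaced by the floor, and its change of -0.33 did not pass (limma adjusted p = 0.0587).

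The arrestins Arr1 and Arr2 were the brightest probe sets among the 7. Arr2, the main arrestin that quenches activated rhodopsin, read 4589.6, 4535, 4117, 3909, 3570.3, 3852, 2835, 3525, 3001, 2896, 2585 and 2461 at hours 1 to 12. It averaged 2736 ± 254 in hours 9 to 12, against 4288 ± 329 in hours 1 to 4 (SD, n = 4 arrays each, of different hours). Arr1, which also acts in the uptake of rhodopsin from the membrane, read 3219.8, 3063, 3025, 2750.0, 2811, 3069.8, 2337, 2799, 2416, 2629.8, 2310.3 and 2264. It averaged 2405 ± 163 in hours 9 to 12, against 3015 ± 195 in hours 1 to 4 (SD, n = 4 arrays each, of different hours). The fitted changes were -0.89 ± 0.10 for Arr2 and -0.46 ± 0.09 for Arr1 (SE, n = 12 arrays; limma adjusted p = 0.000152 and 0.00568). Arr1 had the smallest change of the 7 and ranked 475th among falls.

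Pdh, the photoreceptor dehydrogenase, is a retinol dehydrogenase of retinal pigment cells that acts in renewing the light absorber. It read 323.8, 287.6, 327.7, 225.4, 233.0, 246.9, 213.7, 210.7, 179.1, 117.5, 157.6 and 102.1 at hours 1 to 12. Hours 1 and 3 were the highest, and hours 10 and 12 lay below all the others. The fitted change of -1.49 ± 0.18 (SE, n = 12 arrays; limma adjusted p = 0.00022) corresponds to a fitted level at hour 12 of 35.5% of that at hour 1. It was the 6th largest fall of all tested probe sets.

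**Figure D1:**
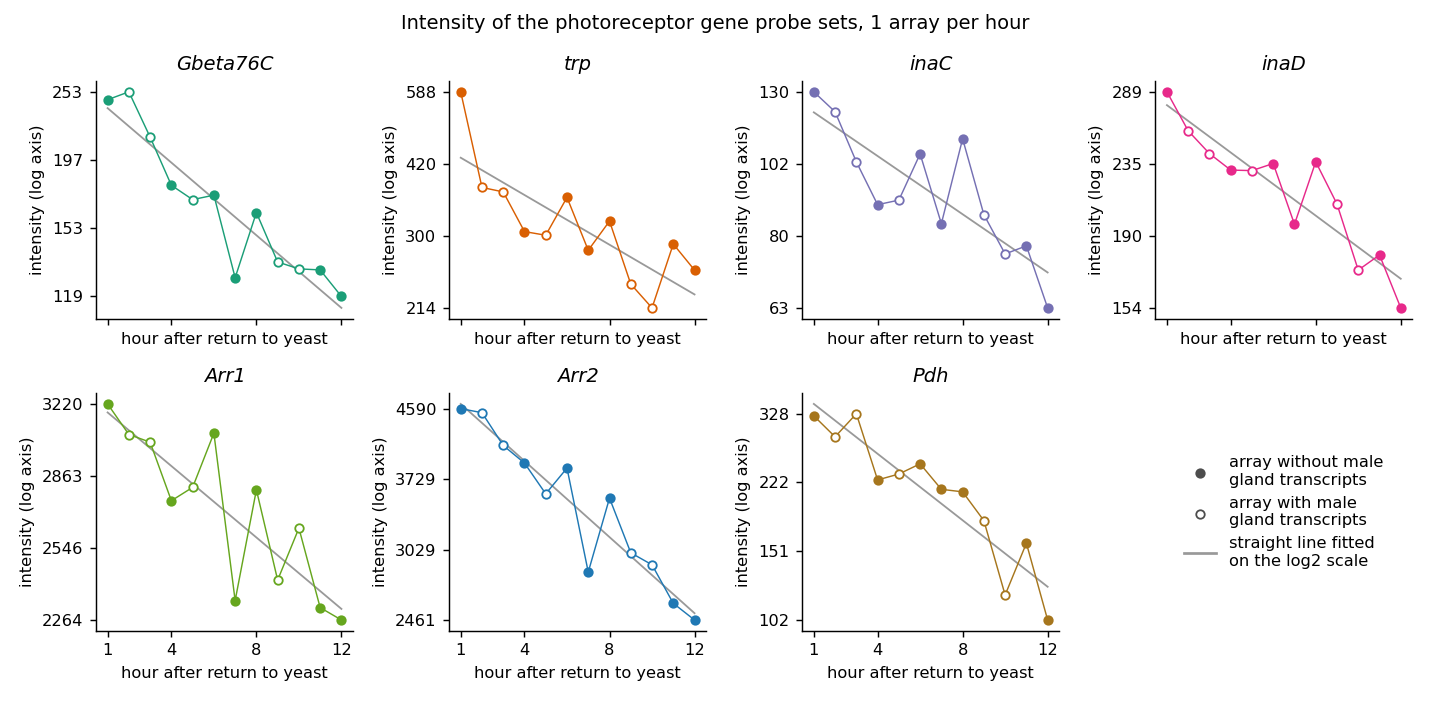
Intensity of the 7 probe sets (vertical log axes, each with its own range) at each hour after the return to yeast (horizontal axis, hours), with open points for the 5 arrays that held male gland transcripts and a straight line fitted on the log2 scale. In every panel the arrays of hours 9 to 12 lie below those of hours 1 to 4.

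The course was tested for its timing with windows of 4 hours. In hours 9 to 12 compared with hours 1 to 4 all 7 fell, with log2 differences from -0.33 ± 0.08 for Arr1 to -1.09 ± 0.16 for Pdh (SE; limma adjusted p = 0.0313 and 0.00388), where 3.01% of all tested probe sets fell. In hours 5 to 8, which hold its dip at hour 7, Gbeta76C fell by 0.50 ± 0.12 relative to hours 1 to 4. Its adjusted p lay just under the threshold (SE, limma adjusted p = 0.0497). It was the only member called in that comparison, in which 0.0777% of tested probe sets fell. The other 6 had differences from -0.13 to -0.35 there, with Pdh at -0.35, trp at -0.34 and Arr2 at -0.32. That comparison was run in the main setting alone, and a difference in timing between members was not tested. Between hours 9 to 12 and hours 5 to 8 limma called 0 members and 0% of all probe sets, while 6 of the 7 members had an unadjusted p under 0.05, as had 771 of all 11586. Pdh had the largest member difference in that comparison, -0.73 ± 0.16, and averaged 139.1 ± 35.5 in hours 9 to 12, against 226.1 ± 17.0 in hours 5 to 8 (SD, n = 4 arrays each, of different hours).

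A quadratic term, which measures a bend in the course, was called by limma for 0 of the 7 members and 0.0345% of all probe sets; 0 members and 641 of all probe sets had an unadjusted p under 0.05. The bend was 0.33 ± 0.15 for trp and -0.25 ± 0.15 for Pdh (SE; limma adjusted p = 0.908 and 0.999), as the log2 distance of the ends from mid-course that the bend alone gives. The window count was less stable than the trend: 4 of 7 were called without hour 2 and 4 without hour 12, and 5 without hour 1, 9 or 11, whereas the trend was called for 7 of 7 with any 1 hour left out.

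The members did not fall by equal amounts. Within each array, the log2 difference Arr2 minus Arr1 changed by -0.43 ± 0.05 over the 12 hours (SE, n = 12 arrays). Against hour this difference had Pearson r = -0.94 (permutation p = 4e-05, 0.00012 adjusted over 3 pairs) and Spearman rho = -0.94 (permutation p = 2e-05, adjusted 6e-05). r was -0.92 without hours 1 and 12, the arrays farthest from the median hour, -0.96 on the 7 arrays without male transcripts and -0.92 on the 5 with them. Pdh minus Arr2, a pair chosen after its values were seen, changed by -0.60 ± 0.21 (SE, n = 12 arrays). Its Pearson r was -0.67 (permutation p = 0.0154, adjusted 0.0231) and its rho -0.62 (permutation p = 0.0339, adjusted 0.0509), so the rank test did not pass, and r was -0.51 without hours 1 and 12. It changed by -0.85 on the 5 arrays with male transcripts (r = -0.78) and by -0.49 on the 7 without them (r = -0.61). trp minus inaD, also chosen then, changed by -0.19 ± 0.20, which did not pass (Pearson r = -0.29, permutation p = 0.375, adjusted 0.375). Its rho was -0.13 (permutation p = 0.685, adjusted 0.685), and leaving out hours 1 and 12 gave r = -0.21. It changed by -0.45 on the 5 arrays (r = -0.89) and by -0.14 on the 7 (r = -0.23), and the difference between these sets of arrays was not tested. All tests of these differences were two-sided.

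**Figure D2:**
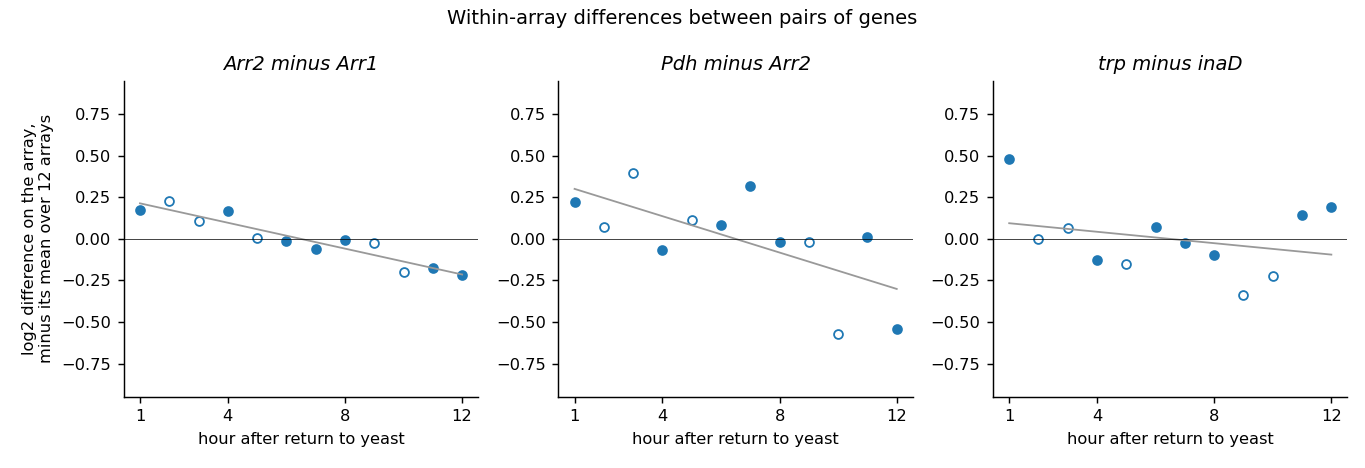
Log2 difference between 2 genes on the same array, minus its mean over the 12 arrays (vertical axes), at each hour after the return to yeast (horizontal axes, hours), with open points for the 5 arrays that held male gland transcripts and fitted straight lines. Arr2 minus Arr1 follows its line closely, with r = -0.94, while trp minus inaD scatters around a nearly flat line.

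Departures from the straight lines were shared. All 7 probe sets lay above their own lines at hours 6 and 8 and all 7 lay below them at hours 4 and 5, and at hour 7 only Pdh was above. The median departure was 0.15 at hour 6, -0.12 at hour 7 and 0.17 at hour 8 on the log2 scale. The median over all tested probe sets lay between -0.02 and 0.04 at every hour. Normalization between arrays holds that median near its line, so it does not show how unusual the departures of the 7 were. From hour 5 to hour 6 all 7 readings went up, and from hour 6 to hour 7 all 7 went down. The share of all tested probe sets that moved likewise was not counted. A dip at hour 7 was not particular to the members. Mean centred log2 levels at hours 6, 7 and 8 were 0.05, -0.07 and 0.05 for the other cascade genes described below. They were 0.05, -0.05 and 0.03 for the neuronal genes and 0.03, -0.14 and 0.03 for the transmitter genes. The clock genes had no such dip, at -0.08, -0.05 and 0.04. The single largest departures were 0.44 for trp at hour 1, 0.37 for inaC at hour 8 and -0.34 for Pdh at hour 10. An RNA quality measure moved in the same hours: the actin controls, 3' reading over 5' reading on the log2 scale, stood at 0.75 at hour 6, 1.01 at hour 7 and 0.70 at hour 8. Its part in these departures was not tested.

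Across the 12 arrays the 21 pairs of members had Pearson correlations of log2 intensity between 0.77 and 0.97, with a median of 0.88, which the shared fall contributes to. With each gene's line removed the correlations ranged from -0.01 to 0.88, with a median of 0.50. The closest pairs were then inaC with inaD, at 0.88, and Arr1 with Arr2, at 0.87. Pdh had -0.01 with Gbeta76C, 0.04 with Arr1 and 0.09 with Arr2, but 0.62 with inaD, 0.53 with inaC and 0.28 with trp. Low values were not particular to Pdh, as trp had 0.18 with Arr2 and 0.28 with Arr1. All pairs share the same 12 arrays and their normalization, so these values are descriptions.

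**Figure D3:**
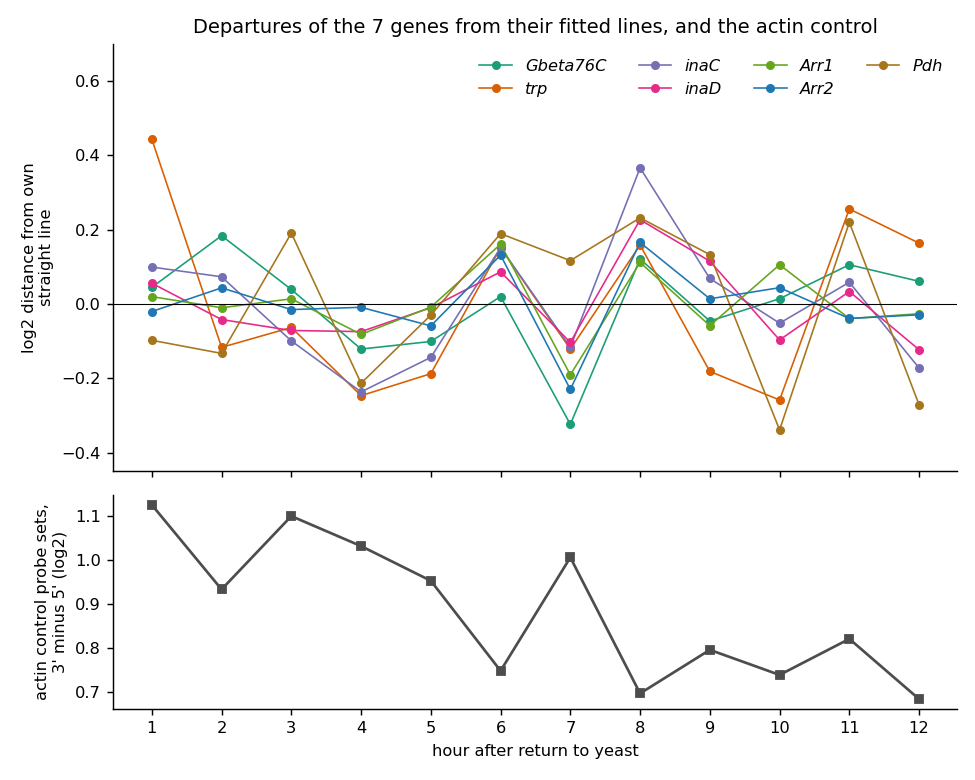
Upper panel: log2 distance of each of the 7 probe sets from its own straight line over hours (vertical axis), at each hour after the return to yeast (horizontal axis, hours). Lower panel: actin controls of the same arrays, 3' over 5' reading on the log2 scale, at 0.75 at hour 6, 1.01 at hour 7 and 0.70 at hour 8; at hours 6 and 8 all 7 genes lie above their lines.

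The rest of the visual cascade moved less uniformly. Of 45 other genes listed for the cascade 27 had a probe set under their own symbol and 24 were tested, each by its brightest probe set. Of these 24, 4 fell (16.7%), 2 rose (8.33%) and 18 did not pass, where 4.80% of all tested genes fell and 9.31% rose. The median change was -0.08, against 0.02 over all tested genes. Many genes of this list act in tissues besides the eye. Both this list and the members were chosen with earlier results of these arrays known.

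The other subunits of the visual G protein were called as falls too, the alpha subunit with a call that many settings ended. The gamma subunit gene Ggamma30A read 143.2 at hour 12 and 263.3 at hour 1, with a fitted change of -0.72 ± 0.14, and the alpha subunit gene Galphaq read 65.5 at hour 12 and 117.8 at hour 1, with -0.67 ± 0.18 (SE, n = 12 arrays; limma adjusted p = 0.00386 and 0.0265). The call of Galphaq was lost in 10 of 25 alternative settings: without hour 1, 3 or 12, without hours 1 and 12 together, without the 5 arrays that held male transcripts, with no filter, with log2 of hour, with either 3' to 5' covariate, and with a floor raised to the 40th percentile, under which its change was -0.26. The photoreceptor protein gene rtp (retinophilin) fell by 0.97 ± 0.14, and rdgC, the phosphatase that acts on rhodopsin, by 0.51 ± 0.10 (SE, n = 12 arrays; limma adjusted p = 0.000869 and 0.00358). rdgC was dim, with a lowest reading of 62.2.

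On the same list 2 genes rose, and whether tissue range goes with the direction of change was not tested. krz, an arrestin of many tissues, rose by 0.49 ± 0.10 and the phospholipase D gene Pld by 0.32 ± 0.08 (SE, n = 12 arrays; limma adjusted p = 0.00555 and 0.0164). Pld lost its call without hour 12. The channel gene trpl, the partner of trp in the light response, had a change of 0.23 ± 0.14 (SE, n = 12 arrays) that did not pass (limma adjusted p = 0.355), at 473.4 at hour 12 and 450.5 at hour 1. The diacylglycerol kinase gene rdgA gave different answers by probe set: the brightest had a change of -0.09 (limma adjusted p = 0.741), and another fell by 0.69 (limma adjusted p = 0.000607).

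**Figure D4:**
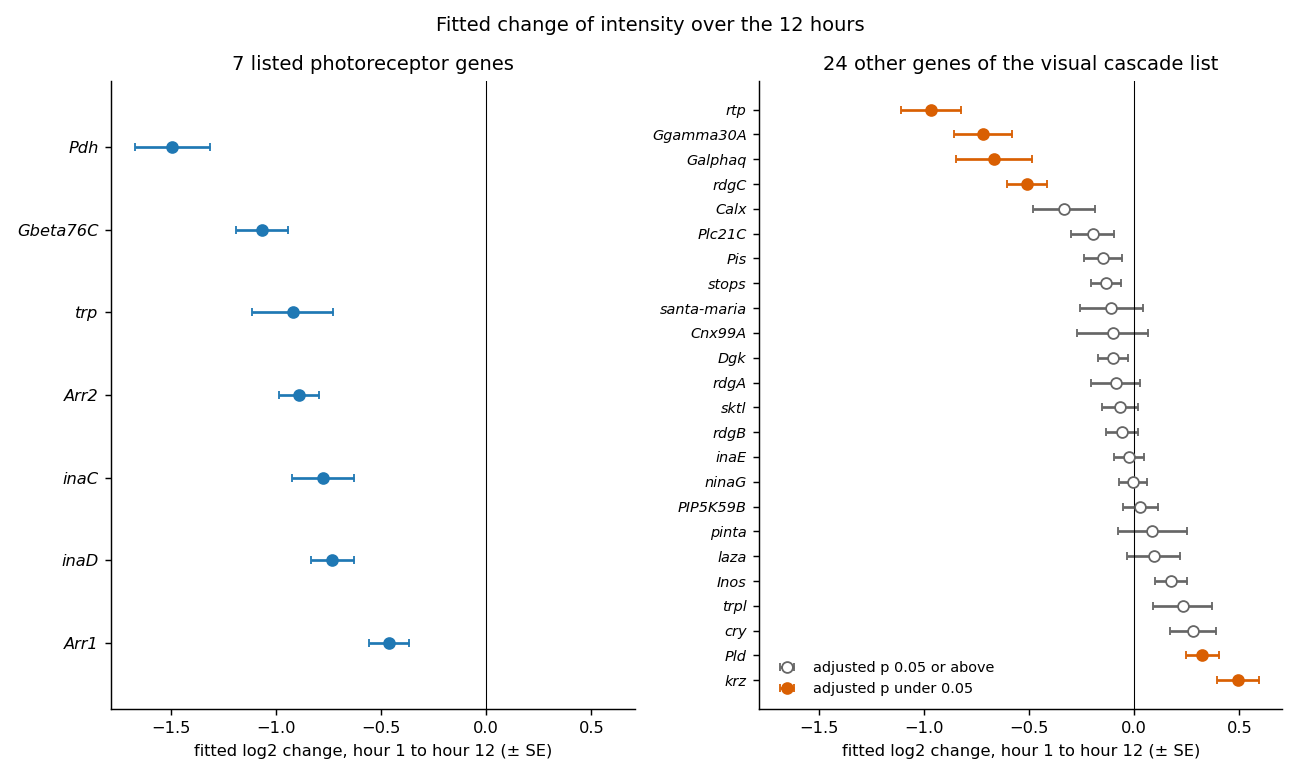
Fitted log2 change from hour 1 to hour 12 with its SE (horizontal axes) for the 7 photoreceptor genes (left) and for 24 other tested genes of the visual cascade list (right), where filled points passed an adjusted p of 0.05. The left-hand genes lie between -0.46 and -1.49, while 18 of the 24 on the right did not pass.

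Of 15 tested genes of eye structure and development 3 fell (20%), 0 rose and 12 did not pass, where 4.80% of all tested genes fell and 9.31% rose. The fallen genes were pros, a transcription factor gene of R7 cells and other neurons (-0.63 ± 0.12), so, an eye determination gene (-0.29 ± 0.07), and boss, a gene for a ligand made by R8 cells (-0.37 ± 0.10; SE, n = 12 arrays; limma adjusted p = 0.00312, 0.0162 and 0.0219). so lost its call without hour 1, 11 or 12 and boss without hour 1, 2 or 11. chp, which encodes a surface protein of photoreceptors, had a change of -0.20 ± 0.10 that did not pass (limma adjusted p = 0.257), the gene being chosen after its values were seen. eys, for a protein of the space between photoreceptors and chosen likewise, gave different answers by probe set: the brightest had a change of 0.03 (limma adjusted p = 0.869), and another fell by 0.47 (limma adjusted p = 0.0311). Of 14 pigment genes 1 fell and 1 rose (7.14% each). They were se, for a pteridine enzyme, at -0.55 ± 0.15, and pr, for another enzyme of pteridine synthesis, at 0.29 ± 0.09 (SE, n = 12 arrays; limma adjusted p = 0.0258 and 0.042). Both calls were lost without hour 1, 2, 11 or 12, and that of pr also without hour 4, 5, 6, 7, 8 or 9. In total pr lost its call in 17 of 25 alternative settings, among them quantile normalization, median centring, no filter and log2 of hour. The gene se lost its call in 8 of 24, among them no filter. The transporter gene st had a change of 0.15 ± 0.07 that did not pass.

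Of 6 tested genes of transmitter handling at the photoreceptor terminal 2 fell (33.3%), 0 rose and 4 did not pass. Over all tested genes 4.80% fell and 9.31% rose. The median change of this list was -0.11, against 0.02 over all tested genes. t (tan), whose enzyme releases histamine from its conjugate, fell by 1.38 ± 0.11, and Culd, a gene for a photoreceptor membrane protein that stands on the same list, fell by 1.25 ± 0.19 (SE, n = 12 arrays; limma adjusted p = 3.11e-05 and 0.00097). e (ebony), whose enzyme makes the conjugate in glia, had a change of -0.15 ± 0.10 that did not pass.

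Other lists also held called genes over the same hours; photoreceptors are themselves neurons, so the neuronal list does not mark other cells alone. Over all tested genes 4.80% fell and 9.31% rose, with a median change of 0.02. Of 14 tested neuronal genes 7 fell (50%), 0 rose and 7 did not pass, with a median change of -0.35. The neuronal genes Rdl, elav and nSyb changed by -0.93 ± 0.12, -0.90 ± 0.13 and -0.84 ± 0.15 (SE, n = 12 arrays; limma adjusted p = 0.000368, 0.000963 and 0.00253), within the range of the photoreceptor genes. Of 11 yolk and eggshell genes 3 rose and 8 did not pass, the 3 being Yp1, Yp2 and Yp3, and Yp1 read 5204 at hour 12 and 632.3 at hour 1. Of 9 clock genes, 2 fell: Clk by 0.78 ± 0.15 and Pdp1 by 0.49 ± 0.13 (SE, n = 12 arrays; limma adjusted p = 0.00348 and 0.0246). Pdp1 lost its call without hour 1 or 12, and cwo, at -0.67 ± 0.23, did not pass (limma adjusted p = 0.065). The value of cwo rested in large part on hour 1, without which it was -0.30 (limma adjusted p = 0.282), and its other probe set had -0.24; it passed with quantile normalization, the accessory gland covariate or log2 of hour. The part of any of these in the fall of the photoreceptor genes was not tested.

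Male transcripts were on 5 arrays, those of hours 2, 3, 5, 9 and 10. The accessory gland marker Acp95EF read between 269.5 and 552.0 on these 5 and between 38.0 and 44.0 on the other 7. The mean log2 level of the 11 accessory gland genes on the array, of 14 listed, lay between 6.36 and 6.57 on these 5 arrays and between 5.90 and 5.95 on the other 7. For the trend over hours limma called 0 of 5 tested accessory gland genes and 0 of 7 tested testis genes, and 0 of either had an unadjusted p under 0.05. With the 5 arrays left out all 7 members still had negative changes, and Gbeta76C, inaD, Arr2 and Pdh passed. In that setting 848 of all 11586 probe sets were called. The changes of trp, inaC and Arr1 were then -0.93, -0.82 and -0.49, at least as large as over all 12 arrays, but did not pass (limma adjusted p = 0.066, 0.0732 and 0.0725). On the 5 arrays alone, a setting added after seeing the data, the 7 changes lay between -0.40 and -1.71. limma called 0 of them and 0 of all 11586 probe sets there, the lowest adjusted p of a member being 0.111, while 7 members and 1529 of all probe sets had an unadjusted p under 0.05. Of the other genes named above as fallen or risen, Ggamma30A, Galphaq, krz, boss, se, Clk and Pdp1 lost their calls without the 5 arrays.

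The actin 3' over 5' measure also followed hour, at 0.69 at hour 12 and 1.13 at hour 1. With it as a covariate 6 of the 7 members still fell, where 228 of all probe sets were called. trp then had a change of -1.01 ± 0.34 (SE) and did not pass (limma adjusted p = 0.167). Of the other genes described above, rtp, Ggamma30A, t, Culd, Rdl, Yp1, Yp2 and Yp3 kept their calls with the actin covariate. rdgC, krz, Pld, Galphaq, pros, so, boss, se, pr, elav, nSyb, Clk and Pdp1 lost theirs; elav then had a limma adjusted p of 0.0787 and nSyb of 0.102. The accessory gland level as a covariate left all 7 called, where 1727 of all probe sets were called.

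Genes outside the list with the course most like that of the members were sought among 9249 probe sets of a single symbol that were above the floor on all 12 arrays. Likeness was Pearson's r over the 12 arrays between log2 intensity and the mean of the 7 standardised member courses. The 10 highest were jus at 0.99, Ank2 and tn at 0.98 each, CG14989 at 0.98, mxt, Msr-110, Rdl and t at 0.97 each, and tna and CG15201 at 0.96 each. Of these, Rdl (a GABA receptor) and t were on the lists above, and jus, at 129.2 at hour 12 and 259.5 at hour 1, is a gene of the nervous system. tn acts in muscle and Ank2 encodes an ankyrin of neurons. The members themselves had r between 0.89 for trp and 0.98 for inaD with this mean, to which each contributes. All points share the 12 arrays and the fall over hours. With every line over hours removed, the 5 highest were CG3732 at 0.93, 7B2 and pio at 0.92 each, Smr at 0.90 and jus at 0.89, so jus was in both sets.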

How the data were processed

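Whole-fly RNA was measured on 12 Affymetrix arrays. Per the labels, RNA was taken up in Trizol and the authors normalized the arrays in dChip with an invariant set; its version and background model are not stated in the labels. The deposited table gives linear intensities, used without further normalization. Arrays give no read depth; precision rests on how many there are.

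Intensities were raised to at least the 20th percentile (57.2) before log2. Fly probe sets above it on at least 3 arrays were tested (11586; 2380 left out, with 44 control probe sets). The platform annotation gives 1 symbol to 12443 probe sets, several to 327 and none here to 1196.

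R 4.3.3 and limma 3.58.1 (lmFit, eBayes) fitted a slope on hour, given as the log2 change over 11 hours, a quadratic term and 3 windows, with Benjamini-Hochberg adjustment over all tested probe sets and a threshold of 0.05. In lists, a gene is its brightest probe set with the adjusted p of that fit. Within-array differences used 100000 permutations of the hours. In simulated data of 11586 probe sets with 200 changed, true log2 changes of 0.5, 1 and 2 were found by the trend fit in 58.2%, 88.1% and 100% of cases, and 7 calls were false. The simulated noise was independent between probe sets, whereas the members shared departures from their lines. These rates therefore need not hold for the measured arrays.

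The text names every member, the 3 genes with the smallest trend p of each list except the accessory gland and testis lists (from which Acp95EF is named as a marker known from earlier results), all called cascade genes and the genes most like the members; trpl, rdgA, chp and eys were chosen after their values were seen. Members and lists were chosen with earlier results of these arrays known. Differences planned with ninaE and Rh4 could not be formed. Alternatives covered normalization, floor, filter, variance model, left-out arrays and covariates.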

Additional observations from a re-analysis of the deposited data

How the results depend on the processing

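The member trend kept 7 of 7 calls with each hour left out and under most other settings, 6 with a floor at the 40th percentile or with the actin covariate, 4 without hours 1 and 12, 4 without the 5 arrays with male transcripts and 0 on those 5 alone, a setting added after seeing the data, with 7 at an unadjusted p under 0.05 in limma. All member changes were negative in every setting run. Without hours 1 and 12 the changes of trp, inaC and Arr1 were -0.72, -0.58 and -0.43 and did not pass. Of the other genes named as fallen or risen, rdgC, Ggamma30A, Pld, Galphaq, pros, so, boss, se, pr, nSyb, Clk and Pdp1 also lost their calls then. For all probe sets the trend counts were 943 to 2002 with 1 hour left out, 405 without hours 1 and 12, 848 without the 5 arrays, 0 on them alone, 228 with the actin covariate and 616 with that of 3 control transcripts. The window of hours 9 to 12 against 1 to 4 called 4 to 7 members with 1 hour left out, 4 with no filter, 3 without hours 1 and 12, 2 without the 5 arrays, 0 with the actin covariate (7 at an unadjusted p under 0.05) and 4 with that of 3 control transcripts. Over all probe sets the window called 977 in the main fit and 406 to 1487 with 1 hour left out. It called 609 with no filter, 179 without hours 1 and 12, and 904 without the 5 arrays. With the accessory gland covariate it called 1472, with the actin covariate 0 (1316 unadjusted) and with that of 3 control transcripts 270. The quadratic term, called by limma for 0 members in every setting run (0 to 2 members unadjusted), had between 0 and 24 calls over all probe sets with 1 hour left out, 9 with the floor at the 40th percentile, 6 with the quantile, robust or accessory gland setting, 1 with no filter, and 0 without hours 1 and 12, without the 5 arrays or with either 3' to 5' covariate, where 560, 701, 602 and 658 were under 0.05 unadjusted. A fit with fewer arrays has less power, but without hour 10 the trend called 2002 of all probe sets, beside 1554 with all 12 arrays. The actin covariate follows hour. What caused the shifts in the counts was not tested. When all probe sets of a gene were averaged, 5 cascade genes fell, beside 4 with the brightest, and Arr2 minus Arr1 changed by -0.42 without the 5 arrays. Intensities near the floor limit inaC, rdgC, Galphaq, se and e, and also Clk, which was above the floor on only 10 arrays. No paired analysis was possible because each hour has 1 array.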
